A study of Mus musculus with 2 samples.

Results

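The Hes and Hey genes encode basic helix-loop-helix (bHLH) repressors, and the genes described here are Hes1, Hes5, Hes6, Hey1, Hey2 and Heyl. They were chosen by name: a probe set was taken where its platform annotation gave a single symbol that was one of these names. Each of the 6 genes had 1 such probe set, so they make up 6 of the 19938 genes with a named probe set, and 5 of them were among the 11325 detected genes. No probe set shared between several genes carried any of these names.

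The cells were neural precursor cells taken from the forebrain of Jcl:ICR mouse embryos at stage E11.5 and grown with FGF2 and EGF, the mitogens that keep such cells dividing. They received either a control retrovirus or a retrovirus carrying HMGN1, a chromatin protein that binds nucleosomes. At 3 days after infection both cultures were replated, and they were then kept for 1 day with neither mitogen before total RNA was taken. The series has 2 arrays, 1 per virus, and no replicates, so no test between the viruses was possible and every difference below describes these RNA samples alone. Hmgn1 itself, the check of the labels, read 230 on the control virus array and 348 on the HMGN1 virus array, 0.57 higher on the log2 scale used below. What the control virus carried, the share of cells infected and the number of embryos pooled are not stated in the labels.

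As background, a Notch receptor bound by a ligand on a neighbouring cell is cut, and its freed inner part joins the DNA-binding protein RBPJ to switch on Hes and Hey genes. HES1 and HES5 then repress proneural bHLH genes and Notch ligand genes, which holds forebrain precursors undifferentiated; with Notch active they also favour later glial fates. HES proteins end in a short motif that recruits Groucho corepressors of the TLE family. HES6 is the exception in the family: it appears in cells entering neuronal differentiation, is not induced by Notch, and counteracts HES1. The HEY proteins act in precursors too and are best known from the heart and blood vessels.

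RefSeq promoter windows of build GRCm38.p6 were at hand for 3 of the 6 genes, Hes5, Hes6 and Hey2. The windows below are the 250 bases before an annotated start, written 5′ to 3′ on the gene's own strand, and capitals mark TGGGAA or its reverse complement TTCCCA, the core of the RBPJ binding motif. Hes5 and Hey2 are shown as Notch target genes with matches, and Hes6 as the member that Notch does not induce.
Hes5, chr4:154960673-154960922, plus strand: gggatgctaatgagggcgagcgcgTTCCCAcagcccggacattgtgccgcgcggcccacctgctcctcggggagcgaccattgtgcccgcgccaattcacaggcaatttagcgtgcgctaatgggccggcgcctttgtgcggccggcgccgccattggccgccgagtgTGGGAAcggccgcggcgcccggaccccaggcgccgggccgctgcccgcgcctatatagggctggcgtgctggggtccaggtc
Hey2, chr10:30842784-30843033, minus strand: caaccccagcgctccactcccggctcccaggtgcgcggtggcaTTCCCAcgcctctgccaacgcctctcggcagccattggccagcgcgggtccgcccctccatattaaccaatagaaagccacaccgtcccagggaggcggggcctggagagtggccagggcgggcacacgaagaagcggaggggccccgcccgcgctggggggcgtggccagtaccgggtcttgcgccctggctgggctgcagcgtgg
Hes6, chr1:91414039-91414288, minus strand: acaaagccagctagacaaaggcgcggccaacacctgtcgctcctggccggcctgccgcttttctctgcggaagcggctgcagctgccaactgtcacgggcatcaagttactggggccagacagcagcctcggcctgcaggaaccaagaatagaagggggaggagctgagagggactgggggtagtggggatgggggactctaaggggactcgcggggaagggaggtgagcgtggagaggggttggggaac

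The Hes5 window held 2 matches, beginning 226 and 82 bases before the start and lying in opposite orientations. Hey2 had 1 match, beginning 207 bases before its start. Neither the Hes6 window printed above nor that of its second annotated start, chr1:91413223-91413472, held a match. In the same search the window of Nrarp, another gene that Notch can switch on, also held no match, and that of Lfng held 2. Of all 32851 promoter windows of this length, 21.6% held at least 1 match on either strand and 2.77% held 2 or more. These are matches of letters only, and binding was not measured.

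Of the Notch effectors in the family, Hes5 and Hey1 differed little between the viruses, as did the dimmer Hes1 and Hey2. Heyl was lower with the HMGN1 virus but under the detection floor. Differences are given on the scale log2(intensity + 16), with the control virus subtracted from the HMGN1 virus; the offset of 16 shrinks the differences of dim genes. A gene counted as detected when its mean over both arrays reached an intensity of 85.9, the 95th percentile among 1035 probe sets for olfactory receptors, which forebrain cells scarcely express. As a measure of scatter, different probe sets of 1 gene gave log2 differences that varied with an SD of 0.0891 over 683 genes, a figure that leaves out variation between cultures or arrays. Over the detected genes the median difference was 0.027 and the SD 0.111.

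Hes5, the member that depends most on Notch signalling in precursors, read 460 on the control virus array and 452 on the HMGN1 virus array. Its log2 difference was -0.0252, well inside the scatter between probe sets of 1 gene. Of all detected genes, 19.1% lay closer to 0 than Hes5. Hes1, whose protein level oscillates in dividing precursors, had intensities of 113 and 115, a log2 difference of 0.0195. Its signal was 1.33 times the detection floor, so Hes1 was measured close to background on both arrays. Hey1, an effector that also holds precursors undifferentiated, stood at 424 with either virus, and its log2 difference was 0.0020. Only 2.40% of detected genes had a smaller difference than Hey1.

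Hey2, the member with the best known role in heart and artery, had an intensity of 126 on both arrays. The deposited values were the same to the last digit, which gives a log2 difference of 0. Such identical pairs made up 168 of the 11325 detected genes, or 1.48%. The sources used here do not say how identical values came about, so what the 0 of Hey2 measures is not known.

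Hes6, the member tied to neuronal differentiation, was the lowest of the detected members. The control virus array read 457 and the HMGN1 virus array 424, so that Hes6 differed by -0.11 (log2), or was 1.08-fold lower. This was 1.18 times the SD between probe sets of 1 gene, and 11.3% of detected genes had a difference as low or lower. Among the 1000 genes nearest to Hes6 in mean intensity the differences had an SD of 0.101, close to the distance of Hes6 from 0. Of these genes 6.5% were as low as Hes6 or lower. With the intensity trend removed Hes6 stood at -0.14.

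Heyl, known from vascular smooth muscle, had the largest difference of the 6 but fell under the detection floor. It read 88.1 on the control virus array, just above the floor, and 70.8 on the HMGN1 virus array, below it. The log2 difference was -0.26. At this level of signal the scatter was wider than over all detected genes (SD 0.111). Among the 1000 genes nearest to Heyl in mean intensity the differences had an SD of 0.133, and 3.1% were as low as Heyl or lower. Across 1027 olfactory receptor genes, nearly all under the floor by its definition, the median difference was -0.050 and the SD 0.156. Of these genes 78, or 7.59%, were as low as Heyl or lower. Heyl was thus not clear of background in the HMGN1 virus sample.

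**Figure D1:**
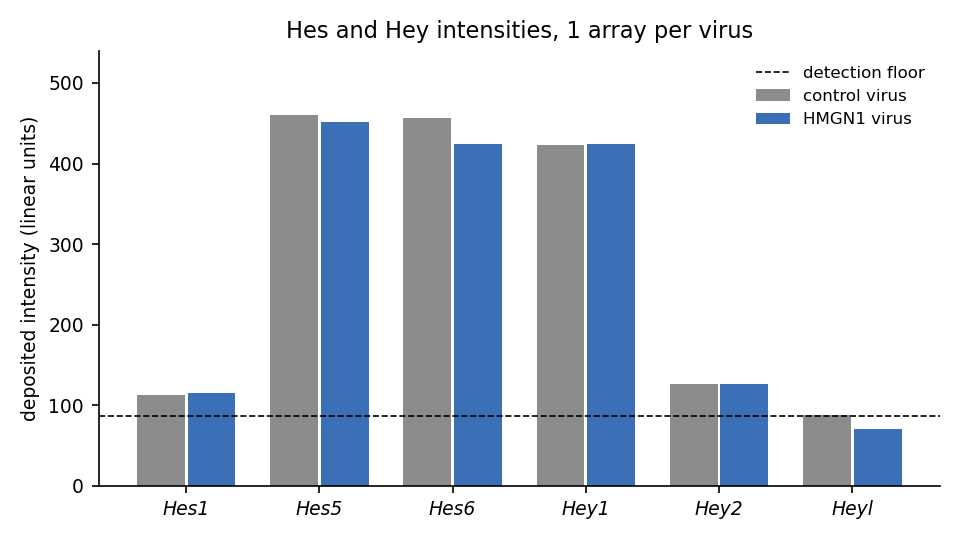
Deposited intensity on a linear scale of the 6 Hes and Hey genes, with a grey bar for the control virus array, a blue bar for the HMGN1 virus array and a dashed line at the detection floor of 85.9. The bars of each pair are close except for Hes6 (457 and 424) and Heyl (88.1 and 70.8), and heights are not to be compared between genes, whose probes differ.

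Counted by a fixed size of 1.2-fold, 0 of the 5 detected members were lower and 0 higher. In all detected genes 1.06% were at least 1.2-fold lower and 1.25% at least 1.2-fold higher, so counts of 0 among 5 genes lie near this background. At 1.1-fold the counts among the members were again 0 and 0, beside 7.20% of all detected genes lower and 13.1% higher, and likewise at 1.5-fold, which 0.0706% of detected genes reached downward and 0% upward. With differences centred on the median of detected genes, the 120 lower and 141 higher genes at 1.2-fold became 185 and 92, and the members' counts stayed at 0. At any size 2 of the 5 were lower, 2 were higher and Hey2 was equal. Over all detected genes 38.4% were lower and 60.1% higher at any size, that is 4354 lower genes, which became 5662 with centring. The median of the 5 members was 0, against 0.027 for all detected genes. Heyl, outside these counts, lay just short of 1.2-fold lower, so close to the chosen size that the offset decided its side: without an offset it was 1.24-fold lower.

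**Figure D2:**
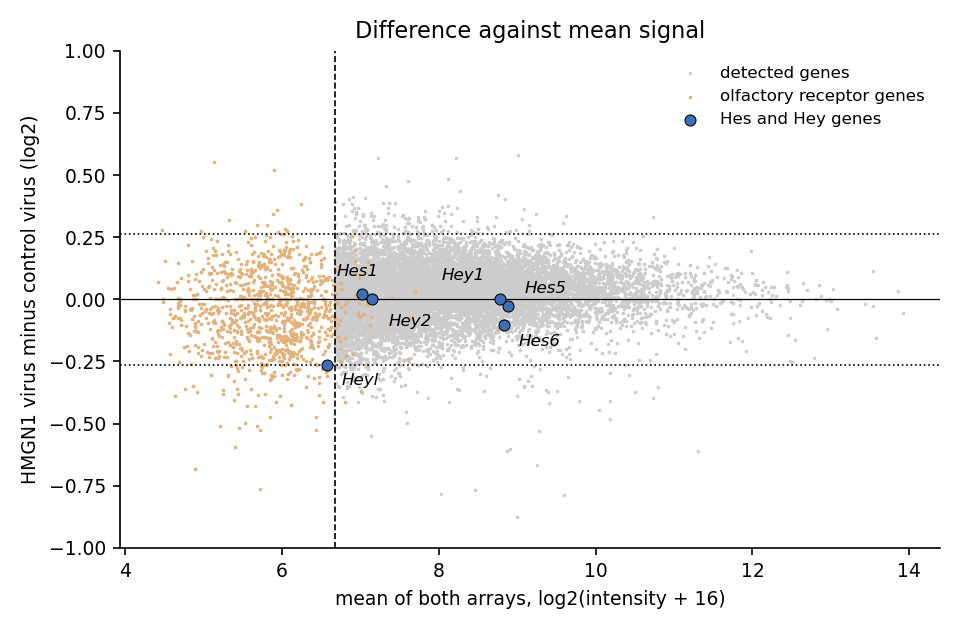
HMGN1 virus minus control virus (log2) against the mean log2(intensity + 16) of both arrays, with detected genes in grey, olfactory receptor genes in orange and the 6 Hes and Hey genes in blue; the dashed line is the detection floor and the dotted lines are 1.2-fold. Hes1, Hes5, Hey1 and Hey2 sit near 0 within the grey cloud, Hes6 at -0.11 lies in its lower part, and Heyl at -0.26 lies left of the floor.

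The Hes and Hey genes are short. Their spans, from annotated start to end with introns included, ran from 1.75 kb for Hes5 to 16.3 kb for Heyl, and on these arrays the difference moved with gene span. The 3760 detected protein-coding genes within that range of spans had a median difference of 0.0032, against 0.029 for all 10882 detected protein-coding genes. With the trend of difference on gene span removed, an alternative added after seeing the data, Hes5 stood at 0.0059 and Hes6 at -0.084. The part of gene span in the members' values was not tested further.

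Markers of neural precursors were present, with 9 of the 9 analysed detected, 5 lower and 4 higher, and a median of -0.012. Over all detected genes 38.4% were lower and 60.1% higher. The precursor factor Sox1 (601 and 467, control virus first as in all pairs of intensities; log2 difference -0.35) and the surface protein Prom1 (202 and 169, -0.24) were lowest. The glutamate transporter Slc1a3 (904 and 1005, 0.15) and the forebrain factor Pax6 (526 and 570, 0.11) were highest, and Sox2 (0.013) and Nes (-0.041) lay near 0. Markers of neurons, astrocytes and the oligodendrocyte lineage were detected as well, but which cells held this RNA was not measured. In a bulk sample fewer cells of a type and less RNA per cell cannot be told apart.

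Most astrocyte markers stood higher in the HMGN1 virus sample. Over all detected genes 60.1% were higher, 1.25% were at least 1.2-fold higher and the median was 0.027. Of 8 astrocyte markers 7 were detected, 6 were higher and 1 lower, 3 were at least 1.2-fold higher, and the median was 0.19. The filament gene Gfap (406 and 615, 0.58) and the water channel Aqp4 (187 and 237, 0.32) were highest, and Aldoc (-0.072) and Aldh1l1 (0.044) lowest. All 8 oligodendrocyte lineage markers were detected, 5 higher and 3 lower, with 3 at least 1.2-fold higher and a median of 0.075, from Enpp6 (0.46) and Gpr17 (0.33) to Cspg4 (-0.059) and Olig2 (-0.16). All 8 neuron markers were detected, 5 higher and 3 lower, with a median of 0.11, from Syt1 (0.27) and Stmn2 (0.22) to Rbfox3 (-0.15) and Tubb3 (-0.17). At any size, the 5 of 8 higher in the oligodendrocyte and neuron lists lay near the 60.1% of all detected genes. Summed intensities were 3359 and 3668 for the astrocyte list, 6038 and 6209 for the oligodendrocyte list and 8079 and 8417 for the neuron list. The part of these differences in the members' values was not tested.

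Endothelial markers, of interest since Hey genes are used in vessels, were all under the floor (0 of 8 detected, summed intensities of 448 and 413). Of pericyte, smooth muscle and mesenchyme markers 5 of 10 were detected, with summed intensities of 939 and 913, from Pdgfrb (0.042) and Acta2 (-0.039) to Col3a1 (-0.12) and Col1a1 (-0.19). Of 8 microglia and macrophage markers 2 were detected, Cx3cr1 (0.0080) and Cd68 (-0.059). The erythroid markers Hbb-y (43.8 and 39.3) and Alas2 (47.4 and 52.1) were under the floor, and no marker in any list had an intensity of 0.

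The members were next set beside the pathway that controls them. Ligands, receptors and Fringe enzymes stood mostly lower in the HMGN1 virus sample: of these 12 genes, all detected, 9 were lower and 3 higher, and their median was -0.12; of all detected genes 38.4% were lower and 60.1% higher. At least 1.1-fold lower were 4 of the 12 (Dll1, Notch3, Lfng and Mfng), and 1, Notch2, was at least 1.1-fold higher, beside 7.20% and 13.1% of all detected genes. Whether the Hes and Hey genes differed from this group was not tested.

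Among the ligands, which are presented by differentiating cells to their neighbours, Dll1 had intensities of 582 and 494, a log2 difference of -0.23. Dll3, a relative that acts within the cell that makes it, differed by -0.14 and Dll4, best known from arteries, by -0.11. The Jagged ligands did not follow, at 0.10 for Jag1 and 0.0073 for Jag2, though Jag2 was near the floor (89.1 and 89.6). Of the receptors, Notch1 stood at 1529 and 1502, a difference of -0.025, and Notch2 at 507 and 566 (0.16). Notch3 was at 200 and 165 (-0.25) and Notch4, near the floor, at 95.6 and 85.9 (-0.13). The receptors thus went both ways. The Fringe enzymes add sugars to Notch receptors and set which ligands they answer to. All 3 were lower, at -0.28 for Lfng (427 and 349), -0.15 for Mfng (518 and 467) and -0.11 for Rfng (206 and 189). Lfng alone of the 12 passed 1.2-fold.

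The steps between receptor and target gene showed no such lean to lower values, beside 38.4% of all detected genes lower and 60.1% higher. Of 15 genes of Notch processing and trafficking, all detected, 6 were lower, 8 higher and Psen2, a catalytic subunit of gamma-secretase, equal to the last digit, with a median of 0.026. Adam17, a protease that can shed Notch, was highest (226 and 278, 0.28), followed by Mib1 (0.093), which sets ligands in motion by ubiquitination. Aph1b (-0.11), a subunit of gamma-secretase, and Numbl (-0.063), a relative of the Notch antagonist Numb, were lowest. In the nuclear complex 8 of 10 genes were higher, 2 were lower and the median was 0.064. Spen, a corepressor of RBPJ, was highest (562 and 640, 0.18), with the histone demethylase Kdm5a next (0.12). The coactivators Maml3 (-0.079) and Maml1 (-0.019) were lowest. Rbpj, named here for its place above the members, stood at 612 and 660 (0.11), but its second, dim probe set went the other way (43.6 and 33.9, -0.26). The probe sets of Maml2 disagreed too, at 0.014 and -0.23.

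Other genes that Notch can switch on were, like the detected Hes and Hey effectors, mostly close to their control values. Of 7 detected, 3 were lower and 4 higher, near the 38.4% and 60.1% of all detected genes. Their median was 0.017, and 0 passed 1.1-fold either way. Of all detected genes 7.20% were at least 1.1-fold lower and 13.1% higher, so most genes passed in neither direction. Nrarp, a feedback inhibitor of Notch, was lowest at 221 and 201 (-0.13). The ubiquitin ligase genes Dtx1 (0.051) and Dtx4 (0.017), the radial glia lipid carrier Fabp7 (-0.019), the glial regulator Sox9 (-0.031), the cyclin Ccnd1 (0.023) and Myc (0.029) lay within the scatter between probe sets of 1 gene.

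**Figure D3:**
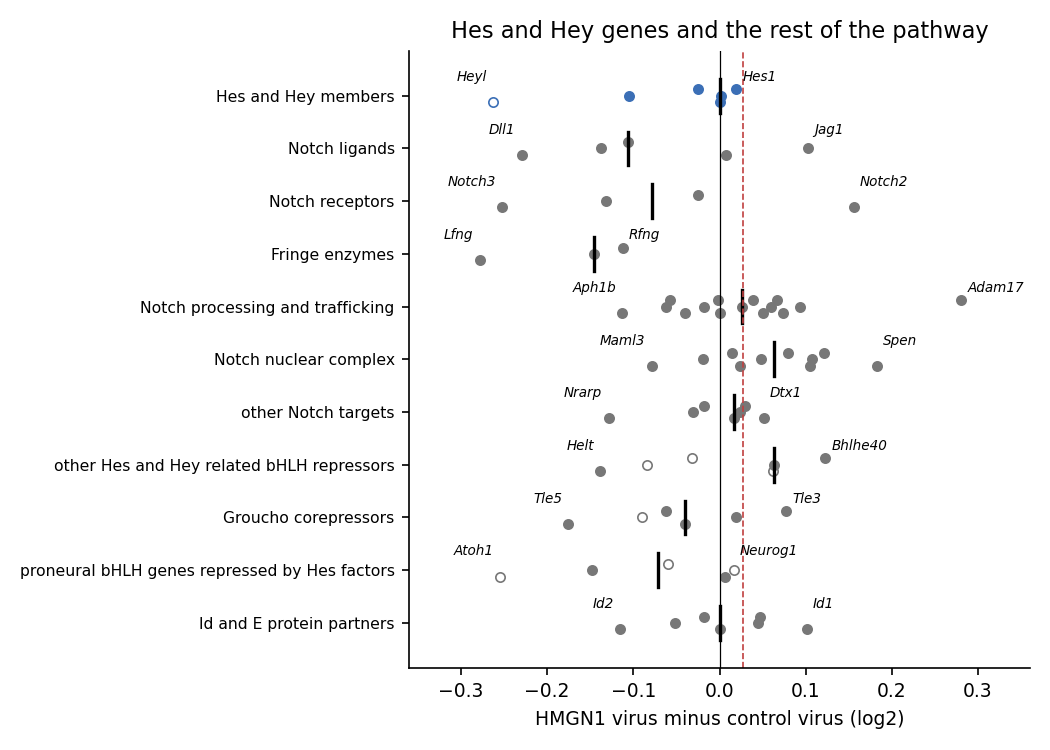
HMGN1 virus minus control virus (log2) for the 6 Hes and Hey genes (blue) and 10 lists of their pathway (grey), 1 point per gene, filled where detected and open where under the floor, with the lowest and highest gene of each list named; black bars are medians of detected genes and the red dashed line is the median of all detected genes, 0.027. Fringe enzymes lie wholly below 0, Notch ligands and receptors mostly so, and the detected Hes and Hey genes lie between -0.11 and 0.0195.

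Relatives of the Hes and Hey genes were mostly dim. Of 6 analysed 3 were detected. Bhlhe40, a repressor of the circadian clock, stood at 149 and 163 (0.12), and Hes7, the oscillator of somite formation, at 85.6 and 90.2 (0.064). Helt, a repressor known from the midbrain, stood at 104 and 92.7 (-0.14). Helt passed 1.1-fold lower, and both Helt and Hes7 were near the floor. Hes2 (66.1 and 69.7), Hes3 (44.8 and 41.3) and Bhlhe41 (56.5 and 55.0) were under the floor.

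The Groucho corepressors, through which HES proteins act, had a median of -0.040 over 5 detected genes. Tle5, a short family member that lacks the repeats of the others, was lowest at 1303 and 1152 (-0.18). Tle1 (-0.062), Tle4 (-0.040), Tle3 (0.077) and Tle2 (0.019) lay within the scatter between probe sets, and Tle6 was under the floor. Id and E proteins, which pair with bHLH factors, had a median of 0 over 7 detected genes. At 1.1-fold 0 passed, beside 7.20% of all detected genes lower and 13.1% higher. Id3 was equal to the last digit on both arrays, Id1 stood at 0.10, Id4 at 0.045 and Id2 at -0.12, and the E proteins Tcf3, Tcf4 and Tcf12 at -0.052, 0.047 and -0.018.

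Of the proneural genes that HES factors repress, 5 were analysed and 2 were detected. Neurog2, which commits cortical precursors to the neuronal fate, stood at 302 and 303 (0.0067). Neurod1, a later factor of the same cascade, stood at 289 and 259 (-0.15), past 1.1-fold lower. Neurog1 (73.0 and 74.0), Neurod4 (85.9 and 81.8) and Atoh1 (68.0 and 54.4) were under the floor. Hes6 is known as a gene that proneural factors switch on, as are Dll1, Dll3 and Mfng. Side by side, these genes differed by -0.11 (Hes6), -0.23 (Dll1), -0.14 (Dll3) and -0.15 (Mfng), whereas Hes5, Hes1 and Hey1 lay between -0.0252 and 0.0195. Not every gene that Notch can switch on lay in that range. Nrarp differed by -0.13 and Heyl, under the floor, by -0.26, while the other Notch targets listed lay between -0.031 and 0.051. Hes6, Dll1, Dll3 and Mfng were set together with their values known, and the difference between the groups was not tested.

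HES and HEY proteins bind the class C site, searched here as CACGNG, and HES proteins also the N box, CACNAG, each on both strands; CACGAG counts as both. In windows of 250 bases, 23.5% of all promoters held the class C letters and 36.7% the N box. Among the genes that HES factors repress, the windows of Neurog1 and Neurod1 held 1 class C match each, as did both windows of Dll1, and that of Atoh1 held 3. The windows of Neurog2 and Dll3 held no match to either motif, and those of Neurod4 held N boxes (1 and 2) and no class C match. The Neurod4 windows overlap, and 1 N box lies in both. The Hes5 and Hey2 windows held no match to either motif. Of the Hes6 windows, the one printed above held 1 class C match and the other held 1 N box.

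The members' differences were also followed across other ways of processing the same values. Hes6 and Heyl were lower in each of the 10 other settings, Hes6 from -0.14 to -0.084 and Heyl from -0.31 to -0.17. Hes1, Hes5, Hey1 and Hey2 took both signs or 0 across these settings and stayed between -0.063 and 0.042, inside the SD between probe sets of 1 gene. Not all of the settings could change a direction. Each member had a single probe set, so the mean of probe sets, the other floors and no filter left its difference as it was. Another offset changes the size of a difference but not its sign. Only the normalization, centring and trend settings could have turned a sign.

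**Figure D4:**
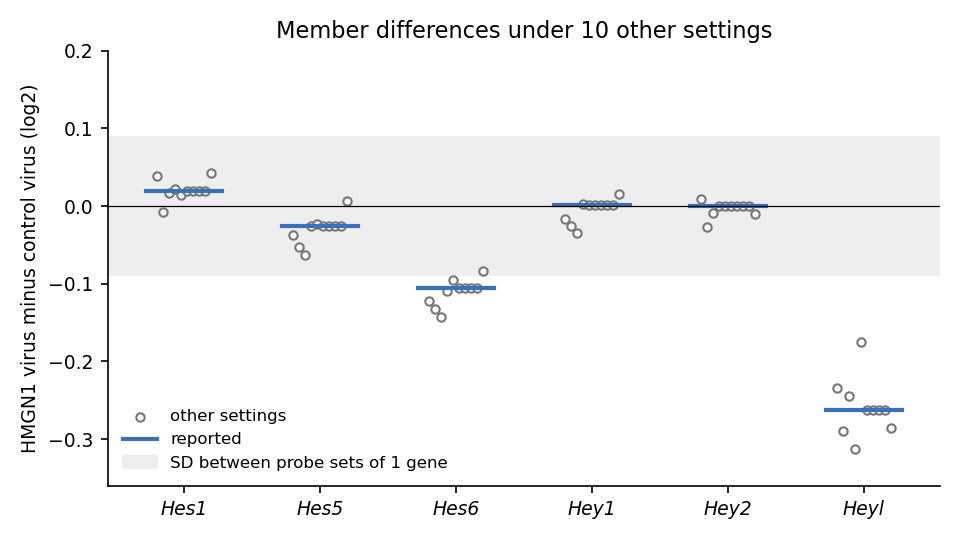
Difference of each Hes and Hey gene, HMGN1 virus minus control virus (log2), as reported (blue line) and under 10 other settings (open points), with the grey band showing the SD between probe sets of 1 gene, 0.0891, on either side of 0. All points of Hes1, Hes5, Hey1 and Hey2 lie within the band, those of Hes6 lie near or below its lower edge, and those of Heyl lie below it.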

How the data were processed

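Per the labels' protocols, total RNA of the 2 samples was amplified and biotin-labelled with a GeneChip WT kit and read on 1-colour arrays. The authors deposited 1 intensity value per probe set and array on a linear scale; their background correction, normalization and summary of probes are not given in the sources used here. Median intensities were 101 (control virus) and 98.8 (HMGN1 virus) over 28944 probe sets. GEO's platform annotation gave 21789 probe sets a single symbol, and list genes were matched by RefSeq gene number (GRCm38.p6). A gene took the probe set with its highest mean signal. No further normalization was applied.

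The members and gene lists were chosen with earlier results of these data known. The genes named are the members, Hmgn1, every gene of lists of up to 7 genes, and the 2 highest and 2 lowest detected genes of longer lists; Sox2, Nes, Rbpj, Maml2, Psen2 and the setting of Hes6 beside Dll1, Dll3 and Mfng were added after values were seen. Loess (statsmodels 0.14.6, span 0.3) removed trends. The code was tested on simulated data. With 1 array per virus no p-value is given, and the number of arrays limits the precision.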

Additional observations from a re-analysis of the deposited data

How the results depend on the processing

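No paired analysis was possible because there is 1 array per virus, and for the same reason no replicate could be left out. The differences of the 6 genes moved by under 0.0891, the SD between a gene's probe sets, with quantile normalization, with centring, with the intensity trend or (added after seeing the data) the gene span trend removed, and with offsets of 1 and 64. They could not move with the mean of probe sets, other floors or no filter, since each member had a single probe set. The counts of members past 1.2-fold stayed 0 in both directions under these settings and at 1.1-fold and 1.5-fold, and the members' median ran from -0.035 to 0.0059. The background counts did move. Detected genes at least 1.2-fold lower and higher, 120 and 141, became 185 and 92 with centring on the median of detected genes, 55 and 52 with an offset of 64, 463 and 311 with no filter, 8 and 0 at 1.5-fold, and 815 and 1487 at 1.1-fold. Higher calls made up 42.7% of calls with the intensity trend removed and 43.7% with the gene span trend removed. Detected genes lower at any size, 4354, numbered 5662 with centring and 5644 with either trend removed, and 9110 of 19938 genes with no filter. Centring, the size, the filter and the offset act by construction, and removing a trend also brings the detected genes to a centre near 0. For the other settings the cause was not tested. A floor at the 99th olfactory receptor percentile left 4 of the 6 members, without Hes1. Low signal limits Hes1, Hey2 and Heyl.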

Other observations

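Identical values in both columns, as for Hey2, were more common at low signal: 335 of 8613 genes under the detection floor, 3.89%, had them, against 1.48% of detected genes. The median intensity of the 749 probe sets with identical values was 51.3. Among the detected genes of the pathway lists, Id3 and Psen2 had them as well.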
